A study of Mus musculus with 10 samples.

Results

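The regions described here had an ATAC-seq peak in differentiating but not in proliferating cultures of adult neural stem cells, both in wild-type (WT) cells and in cells without p27, the CDK inhibitor that Cdkn1b codes for (p27KO). They were selected on the measured peak calls: autosomal regions with a peak in all 5 lists from differentiating cells (DIFF) and in none of the 5 lists from proliferating cells (PRO). Of 133147 autosomal regions, 935 met this rule and are called opening regions, which is 0.702% of all regions. Presence or absence of a peak in the 2 conditions is therefore how the regions were chosen and not a finding about them, and it was not tested.

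ATAC-seq uses a transposase that inserts adapters into accessible DNA, so that a pile of fragments marks an open promoter or a distal element such as an enhancer. Distal elements are bound by transcription factors that recognise short DNA words, and a set of elements that opens together often shares some of these words. In the subependymal zone (SEZ), neural stem cells yield neuroblasts, oligodendrocytes and astrocytes; nuclear factor I (NFI) proteins take part in glial differentiation, TEAD proteins are the DNA-binding partners of YAP, and AP-1 dimers of FOS and JUN proteins respond to growth factors.

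Cultures came from the SEZ of 10-week-old mice, either WT or p27KO. PRO cells of both genotypes were grown as neurospheres in EGF (20 ng/ml) and FGF (10 ng/ml) (3 WT and 2 p27KO libraries), for 3 days per the labels and a longer time in the study's results. DIFF cells of both genotypes were seeded at 40000 cells/cm2 on Matrigel for 2 days with FGF and then kept for 24 h without mitogens and with 2% serum (3 WT and 2 p27KO libraries), so substrate and serum changed together with the mitogens. Each library held 50000 cells of a bulk culture, in which more open cells and more open chromatin per cell cannot be told apart. In the free-text descriptions the p27KO libraries are named as WT cells, against their titles and genotype. A region spanning the Cdkn1b start site (chr6:134919805-134920945, GRCm38) had a peak in 6 of 6 WT lists and in 0 of 4 p27KO lists. A second region beside it (chr6:134919226-134919665) had a peak in 0 of 6 WT lists and in 2 of 4 p27KO lists.

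The lists held 57534 to 88738 peaks in DIFF and 76372 to 91801 in PRO, with WT DIFF 3 the longest of the DIFF lists. Read totals were not part of these lists, so depth was judged from the background pileup of fragments that the peak caller used, which ranged from 2.52 to 3.72 in DIFF and from 2.61 to 3.41 in PRO. At that background the smallest pileup called as a peak was 9 to 11 fragments in every list of either condition. Absence of a peak means that none was called there, which does not show that the site was closed.

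The sequences below run from 100 bp before to 100 bp after the summit, the point of highest pileup. They come from RefSeq's GRCm38.p6, plus strand, 5′ to 3′. The first 5 are among the 6 strongest regions, the next 3 are the strongest at Smad6, Auts2 and Nfia, and the last is the strongest at a start site. Capitals mark 3 words, read on either strand: the NFI word TTGGCA, which is 1 arm of the palindromic NFI site and reads TGCCAA on the opposite strand, the TEAD word GGAATG, which reads CATTCC on the opposite strand, and the homeobox word TAATTA.
Cavin4 (chr4:48842749-48842949): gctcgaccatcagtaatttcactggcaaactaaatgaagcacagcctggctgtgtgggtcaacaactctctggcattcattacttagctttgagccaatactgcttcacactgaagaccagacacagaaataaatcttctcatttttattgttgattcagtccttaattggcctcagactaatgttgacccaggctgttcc
Rasgrf1 (chr9:89924997-89925197): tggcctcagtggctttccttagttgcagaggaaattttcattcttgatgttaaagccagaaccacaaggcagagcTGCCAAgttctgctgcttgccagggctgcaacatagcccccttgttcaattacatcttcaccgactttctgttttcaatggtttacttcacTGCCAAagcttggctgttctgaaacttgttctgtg
Cep85l (chr10:53444952-53445152): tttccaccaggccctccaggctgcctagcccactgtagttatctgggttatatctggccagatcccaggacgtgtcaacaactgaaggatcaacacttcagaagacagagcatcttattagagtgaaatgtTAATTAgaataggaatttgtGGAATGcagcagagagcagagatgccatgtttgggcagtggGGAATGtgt
P4ha1 (chr10:59310777-59310977): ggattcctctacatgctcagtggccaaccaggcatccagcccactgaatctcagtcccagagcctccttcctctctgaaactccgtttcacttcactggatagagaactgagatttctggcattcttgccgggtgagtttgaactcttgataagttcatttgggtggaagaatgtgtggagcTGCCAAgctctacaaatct
Arhgap5 (chr12:52493486-52493686): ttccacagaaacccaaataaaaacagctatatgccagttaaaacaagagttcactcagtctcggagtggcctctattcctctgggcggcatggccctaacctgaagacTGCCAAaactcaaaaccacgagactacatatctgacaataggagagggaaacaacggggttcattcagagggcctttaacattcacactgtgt
Smad6 (chr9:63896391-63896591): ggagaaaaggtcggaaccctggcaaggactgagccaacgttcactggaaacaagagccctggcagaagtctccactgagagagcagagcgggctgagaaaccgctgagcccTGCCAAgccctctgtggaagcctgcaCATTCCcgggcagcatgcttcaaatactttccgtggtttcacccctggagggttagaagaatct
Auts2 (chr5:132136095-132136295): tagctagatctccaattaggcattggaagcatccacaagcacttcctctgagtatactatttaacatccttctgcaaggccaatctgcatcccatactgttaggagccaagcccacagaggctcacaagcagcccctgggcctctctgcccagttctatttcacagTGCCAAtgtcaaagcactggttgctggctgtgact
Nfia (chr4:97953978-97954178): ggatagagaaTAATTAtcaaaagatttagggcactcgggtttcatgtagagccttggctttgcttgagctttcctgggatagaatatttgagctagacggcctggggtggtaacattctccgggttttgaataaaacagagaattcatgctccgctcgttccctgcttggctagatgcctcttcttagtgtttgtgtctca
Tspan18 (chr2:93227804-93228004): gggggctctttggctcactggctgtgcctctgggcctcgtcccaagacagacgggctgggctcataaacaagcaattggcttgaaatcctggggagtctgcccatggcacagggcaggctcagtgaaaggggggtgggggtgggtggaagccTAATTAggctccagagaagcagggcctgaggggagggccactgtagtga

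Of these 9 windows, the 1 nearest to Cavin4 held none of the words. The Smad6 window held an NFI word 11 bp and a TEAD word 37 bp downstream of the summit. The Cep85l window held 2 TEAD words and 1 homeobox word, and the Rasgrf1 window 2 NFI words.

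The NFI word was the commonest of the words searched. It lay within 100 bp of the summit in 346 of the 935 opening regions, or 37.0%, against 18.1% of all regions, 18.1% of the 2497 regions that closed in both genotypes (a peak in all PRO lists and no DIFF list) and 17.4% of the 36874 regions with a peak in all 10 lists. The TEAD word was found in 258 opening regions, 27.6%, against 14.6% of all regions and 15.7% of closing regions. The homeobox word was found in 88 opening regions, 9.41%, against 3.98% of all regions and 3.84% of closing regions. Words for CEBP factors (TTGCNNAA, 11.1% against 8.29% of all regions) and STAT factors (TTCNNNGAA, 9.20% against 6.24%) were also somewhat more frequent, and the SOX words (ACAAAG or ACAATG) were about as frequent, at 30.5% against 30.0%. These shares are descriptions and were not tested, and a match is a string of letters, not a bound site.

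AP-1 words were rare in the opening regions. TGANTCA was found in 42 of them, 4.49% (95% Wilson interval 3.34 to 6.02, covering counting error only). The share was 8.73% in all regions, 6.14% in regions of all 10 lists and 30.3% in closing regions. E-boxes, the words read by basic helix-loop-helix factors, were also less frequent: CAGATG stood at 10.5% against 17.9% of all regions and 28.9% of closing regions, and CAGCTG at 13.8% against 19.7% and 30.8%. ETS words (CCGGAAG) were found in 2 opening regions, 0.214%, against 2.71% of all regions, and KLF/SP words (GGGCGG), common at CpG-rich promoters, in 23, or 2.46%, against 11.7%. The CTCF core word (CCACNAGG) was found in 3.42% against 6.19%.

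**Figure D1:**
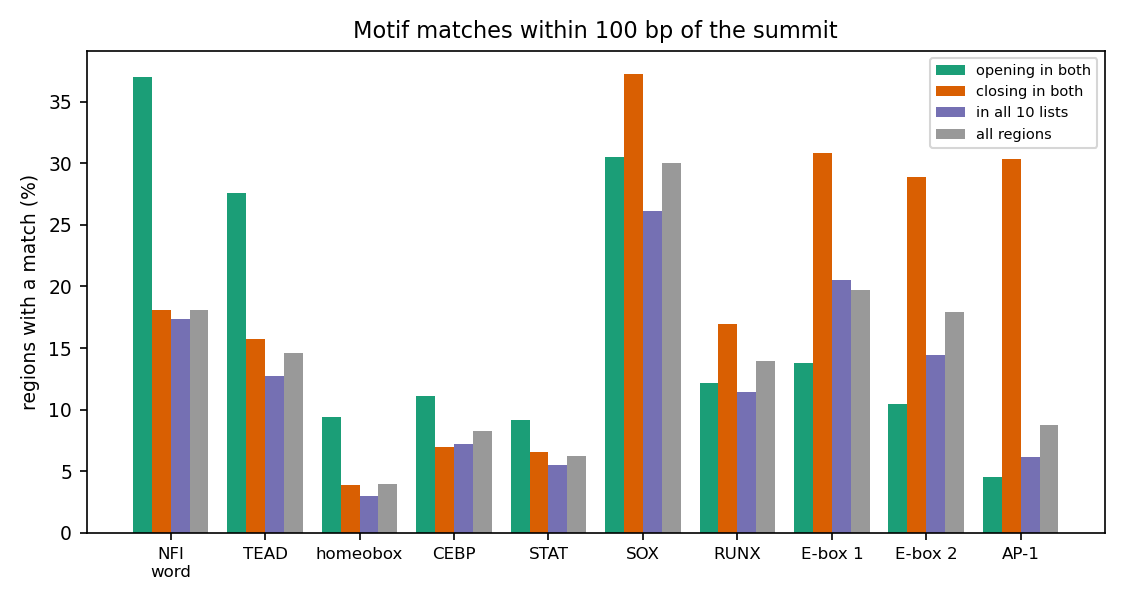
Share of regions (%) with a match within 100 bp of the summit for 10 motifs, in regions opening in both genotypes, closing in both, with a peak in all 10 lists, and in all regions. E-box 1 is CAGCTG and E-box 2 is CAGATG; the opening regions have the highest bars for the NFI word (37.0%), TEAD (27.6%) and homeobox words (9.41%) and the lowest for AP-1 (4.49%) and both E-boxes.

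Opening regions were mostly distal, and promoters differ in base composition, so the shares were also taken beyond 3 kb of protein-coding start sites. There the NFI word was found in 36.9% of 872 opening regions and 19.6% of 110064 regions, the TEAD word in 27.6% and 15.6%, the homeobox word in 9.75% and 4.50% and AP-1 in 4.47% and 9.58%. The median GC content of the windows beyond 3 kb was 48.8% in opening regions and 49.3% in all regions. ETS and KLF/SP words remained less frequent beyond 3 kb, at 0.229% against 1.45% and 2.18% against 5.50%. Repeats, as masked in the reference, covered on average 9.39% of the window in opening regions, 10.1% in closing regions and 14.2% in all regions.

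The matches gathered at the summits. In the 50-bp bins on either side of the summit, a mean of 12.4% of opening regions held an NFI word per bin, against 2.67% per bin at 400 to 500 bp from the summit, a ratio of 4.62. The same ratio was 2.09 in closing regions and 2.19 in regions of all 10 lists. For the TEAD word the values were 10.2% and 3.24% per bin in opening regions, a ratio of 3.14, with 1.49 in closing regions and 1.38 in regions of all 10 lists. The homeobox word had a ratio of 1.72 in opening regions and 0.592 in closing regions. AP-1 showed no such rise in opening regions, with 1.02% per bin at the summit and 1.52% at 400 to 500 bp. The ratio was 0.667, against 6.87 in closing regions. It rests on few matches: the summit bins held 5 and 14 opening regions, and the bin from -100 to -50 bp held 19.

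**Figure D2:**
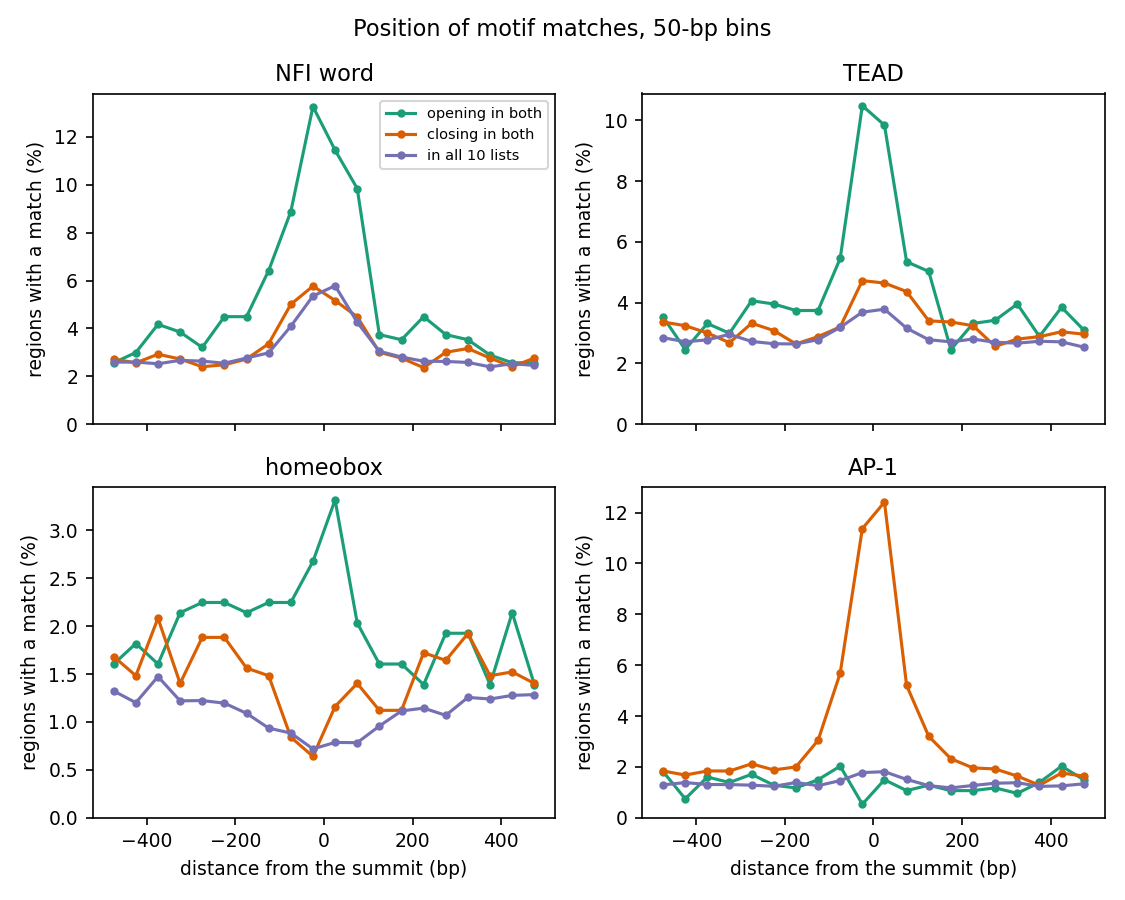
Share of regions (%) with a match centred in each 50-bp bin, by distance from the summit (bp), for 4 motifs in regions opening in both genotypes, closing in both and with a peak in all 10 lists. NFI, TEAD and homeobox matches rise towards the summit of opening regions, while AP-1 matches rise towards the summit of closing regions and stay flat in opening ones.

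TEAD words were about as frequent in opening regions with an NFI word as in those without. A TEAD word was present in 26.0% of the opening regions with an NFI word and in 28.5% of those without. Both words were found in 90 regions, 9.63%, against 2.93% of all regions. At least 1 of the NFI, TEAD and homeobox words was found in 563 opening regions, 60.2%, against 32.4% of all regions, which leaves 372 opening regions with none of the 3. The palindromic full NFI site, with 5 free bases between its arms, was found in 0 of 935 opening regions and in 0.107% of all regions. A form shortened by 1 base at each end, added after the data were seen, was found in 9 opening regions, 0.963%, against 2.11% of all regions and 2.80% of closing regions. The single arm was thus more frequent and the full site was not.

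A search over all 6-base words gave related words without a motif list. Of 1342 words present in at least 5% of regions beyond 3 kb, ranked by the ratio of their share in opening regions to that in all regions, the third was TGCCAA, which is the NFI word, and the fourth was AGCCAA, at 35.8% against 19.0%. CTTGGC, which overlaps it, ranked 7, at 36.7% against 20.3%. ACATTC, which overlaps the TEAD word, ranked 2, at 25.1% against 13.1%, and CATTCC itself ranked 10. AATTGG ranked 1, at 13.4% against 6.81%. At the other end the lowest was CACCTG, an E-box, at 3.67% against 11.8%, followed by GATGAC at 2.75% against 7.65%. The words were ranked by these shares, so the shares are a description and support nothing further.

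The share of motif matches also followed how many PRO lists shared the region. Among regions with a peak in all 5 DIFF lists, the NFI word was found in 37.0%, 35.9%, 36.0%, 29.1%, 26.9% and 17.4% as the number of PRO lists with a peak went from 0 to 5. The TEAD word fell over the same steps, from 27.6% with 0 PRO lists through 23.3% with 2 and 19.3% with 4 to 12.7% with 5. AP-1 stayed between 4.49% and 6.14% across these groups. In the mirror series, regions in all 5 PRO lists, AP-1 went from 30.3% with 0 DIFF lists to 6.14% with 5, while the NFI word stayed between 17.1% and 18.4%. The share within 3 kb of a start site was 6.64% to 9.40% with 0 to 4 PRO lists and 37.2% with all 10 lists; its part in the last step was not tested. Beyond 3 kb, regions of all 10 lists held the NFI word in 22.5%, the TEAD word in 15.7% and AP-1 in 8.06%.

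**Figure D3:**
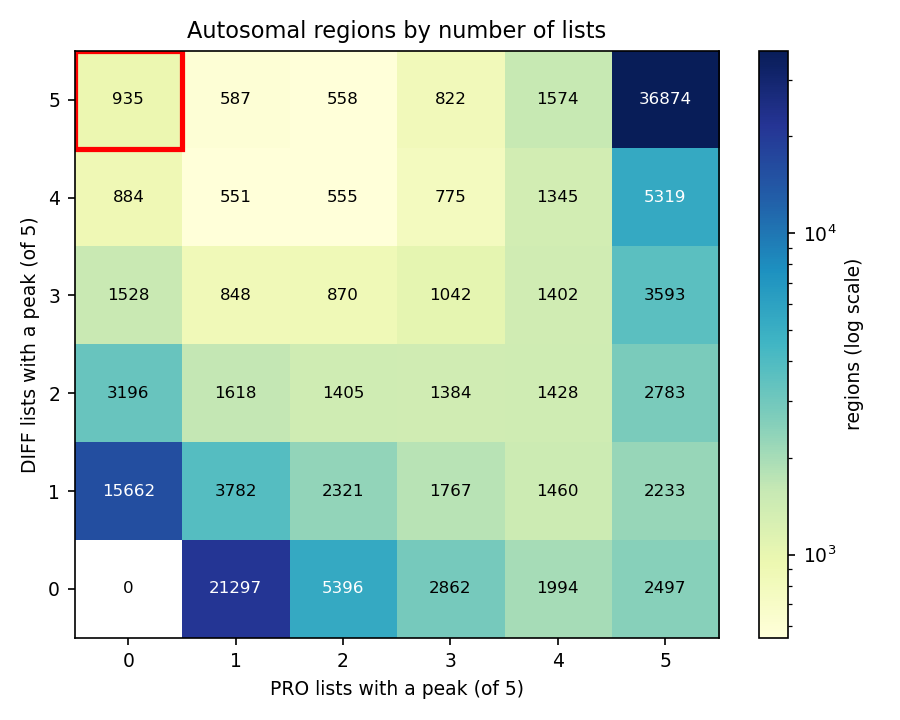
Number of autosomal regions by the number of DIFF lists (vertical axis) and PRO lists (horizontal axis) with a peak, with colour on a log scale. The outlined corner holds the 935 opening regions, the upper right corner 36874 regions of all 10 lists, and the lower right corner 2497 closing regions.

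Opening regions were distal. The summit lay within 3 kb of a protein-coding start site in 63 of 935, 6.74% (95% Wilson interval 5.30 to 8.53), against 17.3% of all regions, 8.57% of closing regions and 37.2% of regions in all 10 lists. A further 470 lay 3 to 50 kb away, 285 lay 50 to 200 kb away and 117 farther. The median distance was 38.4 kb, against 29.4 kb for all regions and 35.1 kb for closing regions. Summits fell in introns of protein-coding genes in 474 regions, or 50.7% against 41.0% of all regions, and between protein-coding genes in 414. Coding exons held 13 summits, UTRs 25 and non-coding exons 9. The median merged width of opening regions was 438 bp, against 429 bp for closing regions and 332 bp for all regions. It was 858 bp for regions of all 10 lists, where peaks of more lists were merged. A region is called by the gene with the nearest start site, which need not be the gene it acts on.

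As accessible sites they were of middling strength. Strength was the fold enrichment, which divides the summit pileup by the local background of its library, ranked within its list from 0 to 100. The median percentile of the opening regions was 39.4, 31.6 and 52.8 in the 3 WT DIFF lists and 40.5 and 40.8 in the p27KO DIFF lists, and was highest in WT DIFF 3, the longest list. Regions of all 10 lists had medians of 64.3 to 77.3 in the same lists. Both sets were chosen by peak calls, which depend on strength, so part of this gap follows from the choice. Fold enrichments averaged over the 5 lists had a median of 4.99, with the middle 50% of regions between 4.32 and 5.82. At the genome-wide background, the smallest fold called was 2.54 to 2.84 in the DIFF lists and 2.63 to 2.77 in the PRO lists. The summit pileup had a median of 19 fragments in each of 4 DIFF lists and of 28 in WT DIFF 3. The mean percentile was above 75 in 24 regions and above 50 in 236.

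**Figure D4:**
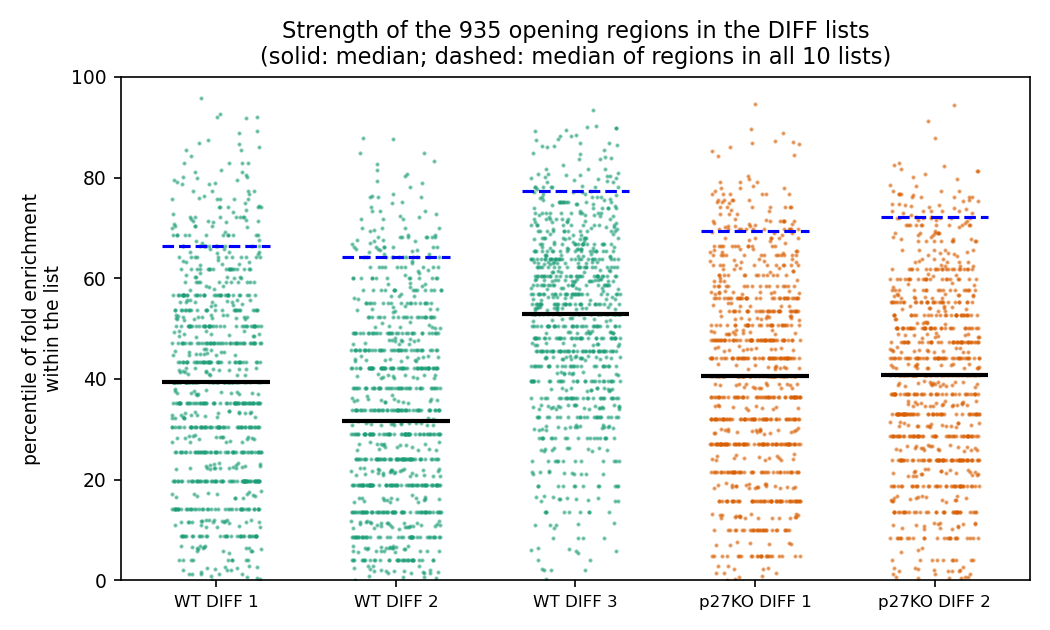
Percentile of fold enrichment of each of the 935 opening regions within each DIFF list (points; WT green, p27KO orange), with their median (solid line) and the median of regions with a peak in all 10 lists (dashed line). The opening regions sit lower in every list, with medians of 31.6 to 52.8, and rows of points are tied fold values.

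Peaks of a region were joined by overlap, so the rule itself brings the summits of the libraries near each other. No other set of regions was compared for this. The 5 summits of a region spanned a median of 91 bp and at most 100 bp in 531 regions, and 864 regions had a single peak in each of the 5 lists. Across the 935 regions, Pearson's r of the percentiles was 0.538 to 0.577 between lists of the same genotype and 0.491 to 0.604 between genotypes; the regions share libraries and a common depth within each list, so these are descriptions. The median distance from an opening region to the nearest PRO peak, which the rule keeps from overlapping it, was 5.35 kb, with 35 regions within 500 bp of one and 99, or 10.6%, within 1 kb.

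Regions just outside the rule were similar or weaker. The 587 regions with all 5 DIFF lists and 1 PRO list had median percentiles of 33.8 to 54.9 in the DIFF lists, and that PRO peak itself was low in its list, with medians of 8.31 to 15.1. The 884 regions with 4 DIFF lists and no PRO list had medians of 18.8 to 36.2 where a peak was called. Weak regions are missed more easily, so this lower level also follows in part from the choice. The list without the peak was WT DIFF 2, the shortest, in 427 of them and WT DIFF 3 in 11. When each list was cut to its 57000 most significant autosomal peaks, the rule gave 1634 regions, and 693 of the original 935 remained. WT DIFF 2, with 55973 autosomal peaks, was not shortened by this cut. The PRO lists held 74176 to 88750 autosomal peaks before it.

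The strongest opening region lay at chr4:48842682-48843312, between genes and 179 kb from the start of Cavin4, which codes for a caveola protein of muscle. Its percentiles were 92.1, 76.2 and 83.6 in WT and 94.6 and 91.1 in p27KO. The values of the genotypes overlapped.

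The next lay in a non-coding exon of Rasgrf1, a nucleotide exchange factor for Ras, at chr9:89924618-89925381. It had percentiles of 91.9, 80.6 and 89.9 in WT and 86.0 and 87.9 in p27KO, and the genotypes overlapped. The third, at chr10:53444853-53445372 and 65.1 kb upstream of the centrosomal gene Cep85l, had 82.9, 70.0 and 86.1 in WT and 88.8 and 94.5 in p27KO. Here both p27KO values lay above the WT values.

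The fourth region, 12.4 kb upstream of P4ha1 (a subunit of the collagen prolyl hydroxylase) at chr10:59310560-59311311, had 89.3, 84.8 and 89.3 in WT and 71.7 and 81.2 in p27KO. Both p27KO values lay below the WT values. In the test of the genotypes given at the end, none of these differences was called. The remaining 6 of the strongest 10 had mean percentiles of 80.1 to 82.7. They were an intronic region of Me2 nearest to Elac1, a tRNA-processing enzyme; a region 10.4 kb upstream of Arhgap5; 1 at Smad6; an intronic region of the kinase gene Mast4; a region 807 kb from Marcks, which codes for an actin-binding target of protein kinase C; and an intronic region of Fndc3b nearest to Ghsr, the ghrelin receptor. None of these 10 lay at a promoter.

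The 935 regions were nearest to 840 genes, of which 756 had 1 region, 75 had 2 and 9 had 3 or more. Smad6, which codes for an inhibitory SMAD that restrains BMP signalling, had the most, with 5 of its 23 regions. The strongest of the 5 (chr9:63896243-63896803), 126 kb downstream of the nearest Smad6 start, had percentiles of 91.9, 68.3 and 84.7 in WT and 89.7 and 74.5 in p27KO. Its summit pileups were 46, 30 and 51 fragments in WT and 48 and 34 in p27KO. The genotypes overlapped in both measures.

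A second region, at 131 kb (chr9:63890681-63891041), had percentiles of 35.2, 55.1 and 45.5 in WT and 32.0 and 67.4 in p27KO. Within the gene, introns held 3 more, at 23.6, 54.2 and 56.2 kb from the nearest start, with mean percentiles of 39.1, 14.6 and 32.2. The region nearest to the start itself, 1.04 kb upstream, had a peak in all 10 lists, and 1 region 28.1 kb upstream closed in both genotypes. Thus at Smad6 the region nearest to the start was called in both conditions, while the 5 opening regions lay farther away. The opening regions at 23.6 and 54.2 kb lay only 222 and 542 bp from a PRO peak. The latter was also 486 bp from a region of all 10 lists.

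**Figure D5:**
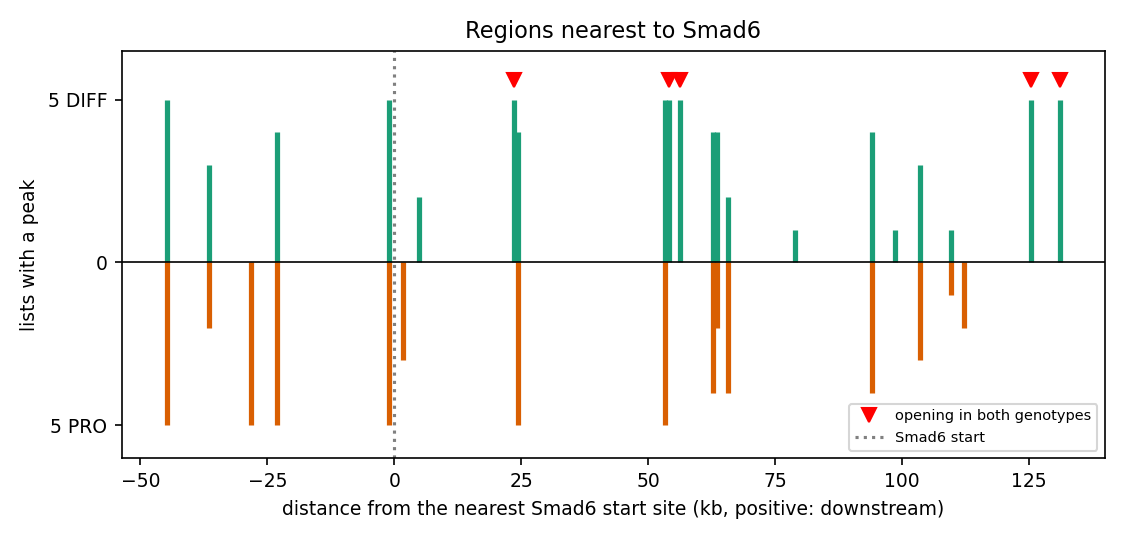
The 23 regions nearest to Smad6 by distance from its nearest start site (kb), with the number of DIFF lists (upward, green) and PRO lists (downward, orange) that have a peak there. Triangles mark the 5 opening regions, all downstream of the start, at 23.6 to 131 kb.

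Aqp4, the water channel of astrocyte endfeet, had 3 opening regions among its 19, at 10.5, 31.1 and 54.5 kb upstream of its start. The farthest of them lay in an intron of another gene, Chst9. The first (chr18:15421027-15421865) had percentiles of 79.9, 52.3 and 88.3 in WT and 76.7 and 82.6 in p27KO. The mean percentiles of the other two were 59.0 and 34.5. No region nearest to Aqp4 closed in both genotypes. Slit3, a secreted ligand of Robo receptors, had 3 opening regions in its introns, at 58.2, 124 and 249 kb from the nearest start, with mean percentiles of 51.7, 54.5 and 37.4. Shroom3, an actin-binding protein of apical constriction, had 3 in introns, with mean percentiles of 23.3 to 62.8.

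A further 5 genes had 3 each: Ube2e2, a ubiquitin-conjugating enzyme; Cdh4, which codes for R-cadherin; Plekha7, of adherens junctions; Ncald, a neuronal calcium sensor; and Lrrc4c, a synaptic adhesion protein that binds netrin-G. The share of their regions that opened ranged from 3.49% at Cdh4, with 86 regions, to 12.5% at Ube2e2, with 24. Auts2, a nuclear regulator of neural development, had 2 regions in introns, both strong. Their summits lay 1.94 kb downstream and 85.8 kb upstream of the nearest start, so the first counts as within 3 kb. The first (chr5:131457963-131458683) had percentiles of 78.9, 75.2 and 73.3 in WT and 77.3 and 74.0 in p27KO, and the second (chr5:132135874-132136593) had 88.8, 68.3 and 79.5 in WT and 68.0 and 76.1 in p27KO. Of the 840 genes, 282 were also nearest to a closing region, which is 33.6% of the genes with an opening region and 13.9% of the 2031 genes with a closing region. Of the 17714 genes nearest to any region, 4.74% had an opening and 11.5% a closing region; the overlap was not tested.

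Along the chromosomes the median spacing was 712 kb to the nearest other opening region, and 119 of them, 12.7%, had another within 100 kb. For the more numerous closing regions the values were 259 kb and 26.8%; spacing depends on the number of regions, and no direction is read from these. The share of regions that opened ranged from 0.440% on chromosome 1 to 0.863% on chromosome 10. Windows of at most 100 kb held 4 opening regions in 1 case, at Smad6, where they made up 4 of 13 regions in 77.0 kb. Windows with 3 were found in 4 places: 3 of 6 regions in 44.1 kb at Aqp4, 3 of 10 in 81.6 kb at Elac1, Me2 and Mro, 3 of 8 in 87.2 kb at Aaed1, Ctsl and Cdk20, and 3 of 11 in 90.7 kb at Agpat4 and Map3k4. A further 50 windows held 2.

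At start sites, 25 opening regions had their summit within 1 kb, 2.67% against 12.6% of all regions and 3.24% of closing regions. The strongest was in Tspan18, a tetraspanin, 118 bp upstream of a start (chr2:93227614-93228317), with percentiles of 79.5, 72.1 and 78.3 in WT and 71.7 and 72.2 in p27KO. It was followed by Sdcbp, which codes for the scaffold protein syntenin-1, with a mean percentile of 67.3 ± 12.6 (SD, n = 5), and Pax4, a transcription factor of the endocrine pancreas, with 61.4 ± 5.49 (SD, n = 5). The others of the first 10 had means of 34.3 to 50.2: Plin4, a lipid droplet protein, D630039A03Rik, Zscan18, Ggta1, a galactosyltransferase, Agpat4, an acyltransferase, Papss2, which makes the sulphate donor, and Lrrc71. None of these 10 genes was in the lists of neural genes below.

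The regions were then grouped by 11 gene lists, written from general knowledge but with earlier results of these data known. Over all protein-coding genes, 4.05% had an opening region nearest to their start and 0.702% of regions were opening; counts per list are set against these. They were not tested, and a gene with more regions nearest to it has more chances.

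Astrocyte genes stood at 6 of 25 genes and 9 of 397 regions, 2.27%. The genes were Aqp4, Atp1b2, a subunit of the sodium pump, Slc4a4, a bicarbonate transporter, the transcription factor Nfia, the glutamate transporter Slc1a2 and the glycolytic enzyme Aldoc. The Atp1b2 region, 5.19 kb upstream (chr11:69610687-69611384), had percentiles of 65.8, 48.0 and 71.3 in WT and 70.1 and 68.6 in p27KO. The Slc4a4 region (chr5:88990122-88990534, intronic) had 45.9, 40.4 and 49.3 in WT and 45.6 and 34.6 in p27KO. Nfia, itself an NFI gene, had 2 intronic regions, with mean percentiles of 33.0 ± 24.2 and 21.9 ± 11.8 (SD, n = 5). Gfap, Slc1a3, Gja1 and the others of this list had none. In this list 5 of the 397 regions closed, 1.26% against 1.88% of all regions, at Hopx, Nfia, Slc1a3 and Sox9. Nfia thus had regions of both kinds.

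The BMP and TGF-beta list had 7 opening regions of 455, 1.54%, at 2 of 25 genes: 5 at Smad6 and 2 at Id2, a target of BMP signalling that holds back basic helix-loop-helix factors. The Id2 regions had mean percentiles of 37.0 and 36.7. In the same list 21 regions closed, 4.62% against 1.88% of all regions, among them regions at Smad3, Smad7, Id3 and Id4.

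Axon guidance genes had 9 of 1003 regions, 0.897%, at 6 of 25 genes: Efna5, Slit3, Unc5d, Robo1, Efnb2 and Ntng1. The Efna5 region, in an intron of this ephrin ligand (chr17:62816389-62817173), had percentiles of 64.2, 69.3 and 80.2 in WT and 86.8 and 70.5 in p27KO. Synapse and ion channel genes had 3 of 688, 0.436%, in introns of the glutamate receptor genes Grik2 and Grm5 and the calcium channel gene Cacna1c. Neuroblast and neuron genes had 1 of 478, 0.209%, in an intron of Nrxn3, a synaptic adhesion gene, with a mean percentile of 49.1 ± 6.20 (SD, n = 5). In these lists, in the same order, 21, 11 and 13 regions closed, or 2.09%, 1.60% and 2.72%, against 1.88% of all regions. Efna5, Efnb2, Robo1, Grik2, Cacna1c and Nrxn3 were nearest to regions of both kinds.

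The oligodendrocyte lineage list had 2 of 254, 0.787%, at Olig1 and Cnp, with mean percentiles of 28.5 and 25.4. The Olig1 region had its summit 1.01 kb downstream of the start, in a UTR, and lay 110 bp from a PRO peak and 78 bp from a region of all 10 lists. Neural stem and progenitor genes had 2 of 525, 0.381%: 1 was 42.2 kb upstream of the Notch target Hes1, and the other 462 kb from Myc. Cell cycle genes had 2 of 221, 0.905%, both upstream of Mki67, at 86.6 and 522 kb. The nearer of them (chr7:135802756-135803501) had percentiles of 72.2, 64.3 and 70.5 in WT and 78.0 and 47.2 in p27KO. Matrix and adhesion genes had 2 of 456, 0.439%, at Sparc and Cdh11. The serum response, AP-1 and YAP list had 2 of 236, 0.848%, at Jun and Ccn1. Closing regions made up 1.18% of the oligodendrocyte list, 1.9% of the progenitor list and 1.36% of the cell cycle list. They made up 2.85% of the matrix list and 2.12% of the serum response list, against 1.88% of all regions. Olig1, Hes1, Myc, Mki67, Cdh11 and Ccn1 were nearest to regions of both kinds. The list of markers of other cell types (microglia, vessels, fibroblasts, ependyma) had 0 opening regions of 210, against 0.702% of all regions. At that share few would fall in a list of this size, so no direction is read from it. It had 6 closing regions, 2.86% against 1.88% of all regions.

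The rule did not use the difference in strength between the genotypes, so this was tested, but only in part. It required a peak in all 5 DIFF lists. Regions below the calling threshold in either genotype were thus left out beforehand, which limits the differences the test could find. Ranks of fold enrichment in the 3 WT and 2 p27KO DIFF lists were turned into normal scores and compared with limma over the 41350 regions with a peak in all 5 DIFF lists. No region was called at an adjusted p under 0.05 with Benjamini-Hochberg adjustment: 0 of 41350 regions, or 0%, and 0 of the 935. The lowest adjusted p was 0.999. At an unadjusted p under 0.05 there were 1855 regions, 4.49%, and among the opening regions 81, 8.66%, of which 57 were lower and 24 higher in p27KO. The median difference over the opening regions, p27KO minus WT, was -0.05 against 0.01 over all regions tested, with a median SE of 0.33. Without p27KO DIFF 2 the median turned to 0.05, so its direction rested on 1 library. The test does not show that the genotypes were alike; p-values here measure the spread between these libraries.

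The largest negative differences were at Mpped2, Amigo1 and Snx2. The intronic region of Mpped2, a phosphodiesterase gene (chr2:106780904-106781452), had percentiles of 47.1, 33.8 and 62.2 in WT and 9.96 and 18.7 in p27KO, a difference of -1.26 ± 0.25 (SE) in normal score; by limma its adjusted p was 0.999. The difference was -1.33 ± 0.35 at Amigo1, a neuronal adhesion gene, and -1.42 ± 0.42 at Snx2, a retromer gene. The largest positive differences were 1.21 ± 0.48 at Ppp1r3c, which targets a phosphatase to glycogen, 1.20 ± 0.45 at Bloc1s5, of lysosome-related organelles, and 1.08 ± 0.41 at Cdh13, which codes for T-cadherin. At Ppp1r3c the WT values were 19.8, 8.48 and 75.1 and the p27KO values 68.0 and 72.2, so WT DIFF 3 lay with p27KO. None of the 6 passed the adjusted threshold.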

How the data were processed

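The 10 lists of ATAC-seq peaks were from 3 WT DIFF, 2 p27KO DIFF, 3 WT PRO and 2 p27KO PRO libraries, grouped by sample title. The authors clipped and trimmed reads with Cutadapt and Trimmomatic, mapped them with Bowtie2 to GRCm38, marked duplicates and ran MACS2 on each library (narrow peaks, no model, FDR 0.05); versions, read shift and extension are not given in the sources used here. The deposited lists give for each peak a score, a fold enrichment (the ratio of summit pileup to local background), its −log10 p-value and −log10 q-value, and the summit. The score and the read depth were not used, the latter since the lists do not hold it.

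Autosomal peaks overlapping by at least 1 bp were merged, and the strongest peak per list gave the region's value; the summit was that of the list with the highest fold enrichment. Summit pileup and background were solved from the deposited fold and −log10 p-value (at −log10 p under 60; at least 99.98% of peaks within 0.001). Genes are GENCODE M21. Motifs were searched on both strands within 100 bp of the summit in GRCm38.p6: besides those whose letters are given, CRE (TGACGTCA), CACGTG, RUNX (TGTGGT), FOX (TGTTTAC), TCF/LEF (CTTTGA), RFX (GTTGCC), POU (ATGCAAAT), EGR (GCGTGGG) and, by name, NFI full, steroid receptor, MEF2 and SRF sites. The test of ranks used limma 3.58.1 (R 4.3.3), without covariates; the study's read-based test needs alignments, not used here. The pileup solution, motif search and rank test were tested on simulated data. Alternatives were list length, peak and region filters, merging, ranking, scale, windows, replicate block and leaving out each library.

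Named are the 10 strongest regions, the 10 genes with most regions, the 10 strongest at start sites, up to 4 genes per list (with the others of the astrocyte and axon guidance lists), the 3 largest differences each way and the 5 tightest windows. The regions and lists were chosen with earlier results of these data known. Sequences: 9 windows; genes for 3 of them were chosen after their values were seen.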

Additional observations from a re-analysis of the deposited data

How the results depend on the processing

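The number of opening regions moved by over 1.5 times under 1 setting, the 57000 most significant autosomal peaks of each list, which gave 1634 regions. That setting shortened the PRO lists but not WT DIFF 2, and the cause was not tested. The number of opening regions lay between 900 and 960 with stricter peaks, wider merging or a free margin around the region. With peaks at −log10 q of at least 3 it was 917, but only 719 of the original 935 regions remained. At −log10 q of at least 2, 909 of them remained, with wider merging 917 and with the free margin 900. When 1 library was left out, the number lay between 952 and 1361, with the highest count without WT DIFF 2. The share at promoters was 2.67% with 1 kb in place of 3 kb and 17.1% with all annotated genes in place of protein-coding genes (28.0% of all regions by the same measure); leaving out 1 library gave 6.36% to 7.36%. The share with an AP-1 word was 1.93% within 50 bp, 7.17% within 150 bp and 1.71% with TGAGTCA alone, each by the construction of the setting, and 4.06% to 4.84% when 1 library was left out. The NFI share of 37.0% for the single arm stood at 0.963% for the shortened full site.

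The test of p27KO against WT called 0 regions under each of the 11 alternatives, with a range of 0 to 0 when 1 library was left out; where 1 p27KO library was left out, the spread came from WT alone. With a lowest adjusted p of 0.999 in the main comparison, these counts say nothing about stability. A replicate block also gave 0 calls, with 2548 regions at an unadjusted p under 0.05; same-numbered libraries had correlations of deviations of 0.026 and -0.052 over the regions, so the numbers were not taken to pair the samples. The lowest adjusted p over all settings was 0.667, under the block. Depth limits all counts, since read totals are unknown and a weak site is called only in a deep enough library.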

Other observations

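Among words not described above, the RUNX word was found in 12.2% of the opening regions and 13.9% of all regions, the TCF/LEF word in 14.3% and 12.6%, the FOX word in 2.78% and 2.81%, the RFX word in 8.88% and 10.5% and the POU word in 1.93% and 1.99%. The CRE word, close to the AP-1 word, was found in 1 opening region, 0.107%, against 0.628% of all regions and 1.44% of closing regions. CACGTG was found in 2.25% and 3.41%, the EGR word in 1.07% and 1.78%, the SRF site in 1.71% and 1.11%, the MEF2 site in 0.535% and 0.581% and the steroid receptor site in 0.214% and 0.414%.

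The median of the mean percentile was 41.0 in regions with an NFI word and 39.3 in those without, 41.6 and 39.7 for the TEAD word, 42.9 and 39.9 for the homeobox word and 39.8 and 40.1 for AP-1. These medians were not tested.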
